A study of Mus musculus with 9 samples.

Results

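The angiopoietin and Tie receptor system was followed through 3 endothelial populations sorted from the ventricles of mouse hearts at E17.5, late in gestation. Its 5 genes, Angpt1, Angpt2, Tek, Tie1 and Ptprb, were taken by symbol from the deposited expected counts table, which holds 41214 genes. All 5 were found, each as 1 row. Every embryo carried the Nes-Gfp and Nes-CreER transgenes (Tg/0), driven by the Nes promoter, and a R26 tom/+ allele, and had been exposed to 0.1 ug of tamoxifen at E15.5. Atria and the aortic region had been removed. The arterial population, enriched for intramyocardial arteries and capillaries, was gated as GFP+, Emcn-low and Tomato+. The venous population, enriched for subepicardial veins, was GFP-low, Emcn-low and Tomato-. The endocardial population was gated as CD31+ and GFP+, with neither an endomucin nor a Tomato condition in the gate as written. All sorted cells were viable, CD31+, CD45- and Ter119-. There were 3 libraries per population, and arterial and venous libraries together are called coronary. The labels do not say whether replicates came from separate embryos or pools, so p-values cover only how far these libraries vary, and that variation may be technical.

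Tek encodes TIE2, the receptor tyrosine kinase of endothelial cells that binds the angiopoietins. ANGPT1, made mostly by perivascular and other supporting cells, activates it and stabilises vessels, while ANGPT2, released by endothelial cells themselves, acts as a context-dependent antagonist or weak agonist. TIE1 is a related receptor that joins TIE2 in complexes and has no angiopoietin as a high-affinity ligand, and Ptprb encodes VE-PTP, a receptor-type phosphatase that dephosphorylates TIE2 and guards endothelial junctions. In mice, loss of Tek or of Angpt1 leaves the endocardium and the trabeculae of the embryonic heart poorly developed.

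The receptor genes Tek and Tie1 lie on chromosome 4 of GRCm38, Tek at 94739289 to 94874976 on the plus strand and Tie1 at 118471191 to 118490061 on the minus strand. Their windows from 250 bases before to 50 bases after the annotated start (RefSeq, GRCm38.p6) are shown as a description. The part of these windows in the level of either gene was not tested. The Tek window is placed on the first base of the gene given above. The Tie1 window is placed on a RefSeq start at 118489849, which lies 212 bases inside the gene as GENCODE gives it, so most of that window is within the GENCODE gene. Capitals mark the ETS core letters GGAA on either strand, the letters recognised by the ETS factors of endothelial cells.
Tek, chr4:94739039-94739338, plus strand: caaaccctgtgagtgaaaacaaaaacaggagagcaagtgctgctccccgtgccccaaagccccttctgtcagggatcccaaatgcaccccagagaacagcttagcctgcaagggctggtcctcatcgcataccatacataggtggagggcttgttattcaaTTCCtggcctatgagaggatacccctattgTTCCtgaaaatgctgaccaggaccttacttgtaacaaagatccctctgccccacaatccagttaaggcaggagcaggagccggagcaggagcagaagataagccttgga
Tie1, chr4:118489800-118490099, minus strand: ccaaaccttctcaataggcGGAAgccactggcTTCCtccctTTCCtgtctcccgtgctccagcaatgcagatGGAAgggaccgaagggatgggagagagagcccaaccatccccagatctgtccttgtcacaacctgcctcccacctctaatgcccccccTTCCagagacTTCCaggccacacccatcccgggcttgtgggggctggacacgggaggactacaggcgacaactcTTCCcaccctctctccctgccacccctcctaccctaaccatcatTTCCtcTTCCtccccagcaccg
The Tie1 window held 9 matches and the Tek window 2, and the median over 32851 windows of this length was 3. At least 9 matches were found in 1.6% of those windows, at least 2 in 84.6% and at least 1 in 96.0%. The forkhead letters GTAAACA, searched on both strands, were in neither window and in 3.6% of all windows. A match describes the letters only.

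Each library held 12750553 to 19474419 counts. Levels below are TMM-scaled CPM, with SDs across replicate libraries, or CPM per kb of exon where genes are set against each other. Summed levels of 12 pan-endothelial markers were 6106 to 8371 CPM in arterial, 5825 to 7840 in venous and 3902 to 5808 in endocardial libraries, and every one of these markers had counts in each population. Summed levels of 10 endocardial markers were 118 to 160, 547 to 877 and 5099 to 5972 CPM in the same 3 populations, and those of 10 arterial markers were 1091 to 1562, 454 to 548 and 351 to 433 CPM. Those of 7 venous markers were 677 to 849, 1160 to 1334 and 890 to 1656 CPM, so they did not separate venous from endocardial libraries. Of 6 venous markers tested, 2 were called higher and 3 lower in venous than in endocardial libraries (edgeR), where 10.2% of all genes were called. Summed levels of 7 lymphatic endothelial markers were 89.9 to 114 CPM for arterial, with Ccl21a at 0, 128 to 209 for venous and 851 to 973 for endocardial libraries. Of these 7 lymphatic markers, 5 were called lower in coronary than in endocardial libraries (edgeR), where 6.91% of all genes tested were. The part of the lymphatic markers in the differences below was not tested. Endocardial replicates 2 and 3 stood apart in the number of genes with a count, at 17251 and 17063, against 18354 to 21160 in the other libraries. Fewer cells of a type and less RNA per cell cannot be told apart in such libraries.

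Tek and Ptprb separated coronary from endocardial endothelium in opposite directions. Tek, the angiopoietin receptor, was 2.07-fold lower in coronary than in endocardial libraries, while Ptprb, its phosphatase, was 2.13-fold higher. Tie1 did not pass the test in any of the 4 comparisons. Angpt2 was lower in arterial than in endocardial libraries, and Angpt1 was close to the limit of detection in coronary ones. All 5 genes passed the filter on low counts, and between coronary and endocardial libraries 1 was higher, 1 lower and 3 not called at an adjusted p under 0.05 (edgeR). Over all 17103 genes tested, 13.9% were called in that comparison, 7.00% higher and 6.91% lower.

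**Figure D1:**
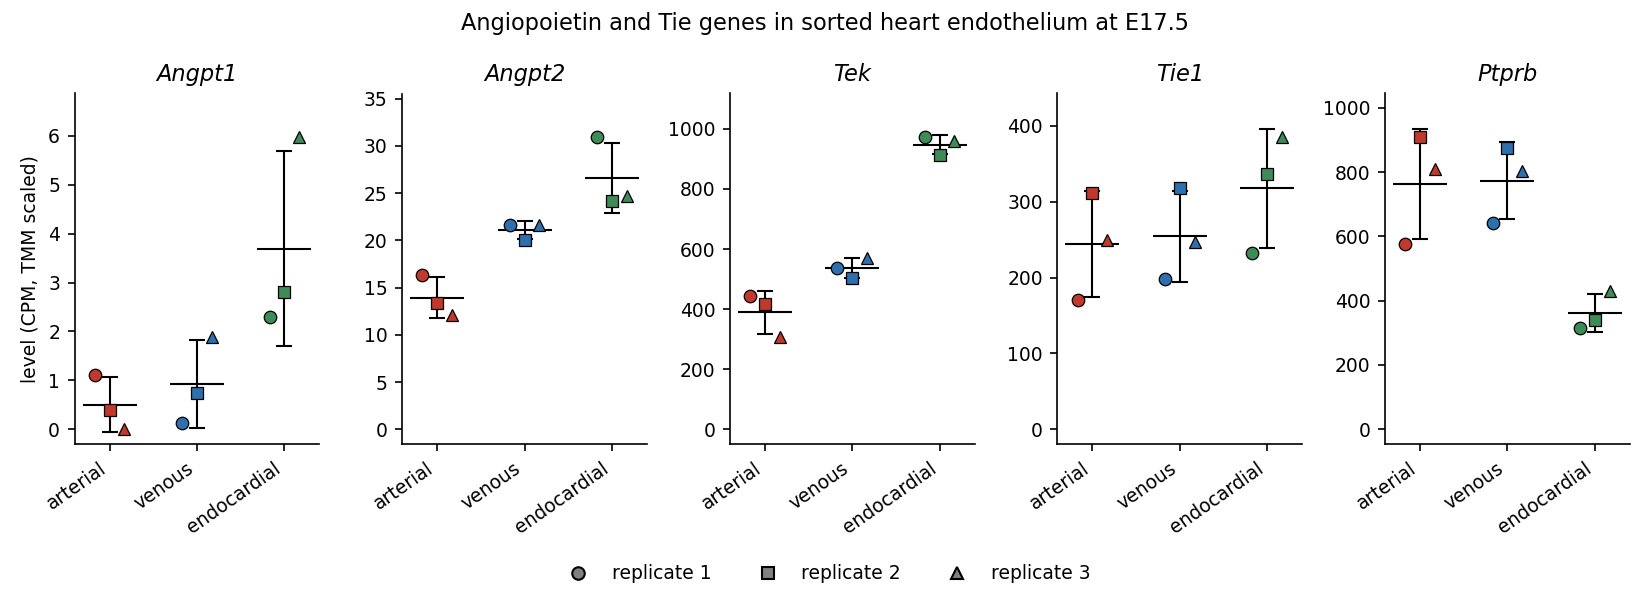
Level of each gene in CPM (TMM scaled, linear axis) in the 3 arterial, 3 venous and 3 endocardial libraries, with 1 symbol per replicate number. The horizontal line is the mean and the bar the SD over 3 libraries. Tek sits highest in the endocardial libraries (912 to 972 CPM) and Ptprb lowest there (315 to 429 CPM).

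Among the ligands, Angpt2 (chromosome 8, 18690263 to 18741562, minus strand) had 16.3, 13.4 and 12.1 CPM in arterial replicates 1, 2 and 3. It had 21.6, 20.0 and 21.6 CPM in the venous and 30.9, 24.2 and 24.7 CPM in the endocardial libraries. The 3 populations did not overlap, and the order from arterial through venous to endocardial was that of Tek. Over all genes tested, 17.3% did not overlap between arterial and venous libraries. The shares were 25.6% between arterial and endocardial and 28.2% between venous and endocardial ones. The share of genes with no overlap among all 3 populations was not counted. Of these steps only the one from arterial to endocardial was called, at a log2 fold change of -0.93 ± 0.27 (SE, adjusted p = 0.0317, edgeR). Arterial lay below endocardial in 3 of 3 batches, as it must where libraries do not overlap. That call ended without any 1 library other than arterial replicate 1, at adjusted p of 0.0555 to 0.116. The differences between the neighbouring populations were smaller. Arterial minus venous was -0.60 (95% interval -1.17 to -0.03, adjusted p = 0.561), and venous minus endocardial was -0.34 (-0.90 to 0.23, adjusted p = 0.526).

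Angpt1 (chromosome 15, 42424723 to 42676977, minus strand), the activating ligand, had very few counts. There were 15, 7 and 0 in the arterial libraries, 2, 12 and 37 in the venous ones and 30, 39 and 88 in the endocardial ones. These counts correspond to 1.11, 0.403 and 0 CPM in arterial, 0.118, 0.741 and 1.89 CPM in venous and 2.29, 2.81 and 5.97 CPM in endocardial libraries. The count of 0 in arterial replicate 3 allows up to 0.225 CPM (3 counts), for counting error only. Arterial and venous libraries overlapped, with arterial minus venous at -0.86 (95% interval -3.80 to 2.07, adjusted p = 0.949, edgeR), and all 6 lay below the 3 endocardial ones. The difference of coronary minus endocardial was -2.43 with a wide interval of -4.82 to -0.03 and was not called (adjusted p = 0.196, edgeR). Over all genes tested, 17.6% had coronary and endocardial libraries that did not overlap.

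Angpt1 is a gene of supporting cells, and markers of such cells were present in these sorts. Summed levels of 10 fibroblast markers were 103 to 118 CPM in arterial, 1387 to 1627 in venous and 1614 to 1961 in endocardial libraries, with Dpep1 at 0 in the arterial ones. Those of 11 mural markers ran the other way, at 537 to 847, 241 to 348 and 85.1 to 151 CPM, with no marker at 0 in a population. Single markers were less uniform than these sums. Between coronary and endocardial libraries 3 of 11 mural markers were called higher and 1 lower (edgeR), where 7.00% and 6.91% of all genes were. Between venous and endocardial libraries 2 of 10 fibroblast markers were called higher and 3 lower, where 5.81% and 4.44% of all genes were. Cardiomyocyte markers (12) summed to 274 to 385, 407 to 566 and 508 to 607 CPM, with Nppa at 0 in the endocardial libraries. Their part in the Angpt1 counts was not tested. The antisense gene Gm17473 shares 737 exon bases with Angpt1 and had a summed count of 0 over the 9 libraries.

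Per kb of exon, Angpt2 was the main angiopoietin in every population. Its mean CPM per kb was 3.77 ± 0.578 for arterial, 5.71 ± 0.249 for venous and 7.21 ± 1.00 for endocardial libraries (SD, n = 3 each). Angpt1 averaged 0.0966 ± 0.107, 0.176 ± 0.173 and 0.709 ± 0.383 CPM per kb in the same populations. The per-kb ratio of Angpt2 to Angpt1 was 20.8 and 46.7 in arterial replicates 1 and 2, and 258, 38.1 and 16.1 in the venous libraries, against 19.0, 12.1 and 5.84 in the endocardial ones. It has no value in arterial replicate 3, where Angpt1 was at 0. Endocardial replicates 2 and 3 had the lowest ratios of the 8 libraries with a value, while endocardial replicate 1 lay within the coronary range, and the highest rested on 2 Angpt1 counts.

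Tek (coordinates above), whose protein binds both ligands, had 442, 418 and 308 CPM in arterial replicates 1, 2 and 3. Venous libraries had 537, 502 and 569 CPM, and endocardial libraries had 972, 912 and 960 CPM. No library of 1 population overlapped with another, a pattern whose pairwise shares over all genes are given with Angpt2. With TMM scaling the endocardial libraries were the closest together, with a coefficient of variation of 3.39% against 18.4% in arterial and 6.23% in venous libraries. By plain library totals endocardial Tek was at 998, 848 and 889 CPM and venous Tek at 540, 503 and 571 CPM. The closeness of the endocardial libraries thus depended on the scaling. Tek was 2.43-fold lower in arterial than in endocardial libraries (log2 -1.28 ± 0.16, adjusted p = 2.24e-05, edgeR). Venous libraries were 1.77-fold lower than endocardial ones (log2 -0.82 ± 0.16, adjusted p = 0.00194). Both differences had the same direction in 3 of 3 batches, which follows from the lack of overlap and adds no support. Against the mean of both coronary populations the log2 difference was -1.05 (95% interval -1.33 to -0.78, adjusted p = 2.12e-05), and it was -1.06 without endocardial replicate 2 (adjusted p = 0.000165) and -1.03 without endocardial replicate 3 (adjusted p = 0.000203).

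Between the coronary populations Tek was lower in the arterial than in the venous libraries. It was lower by 0.28, 0.26 and 0.88 on the log2 scale in batches 1, 2 and 3. As these libraries did not overlap, the shared direction over 3 of 3 batches was bound to follow. The fitted difference of -0.46 (95% interval -0.79 to -0.13) had an unadjusted p of 0.00899 but was not called over all genes (adjusted p = 0.314, edgeR). None of the 5 genes was called between arterial and venous libraries by edgeR, DESeq2 or limma voom. Of them 2, Tek and Angpt2, had an unadjusted p under 0.05 in edgeR. The share of all genes under that unadjusted threshold was not counted. In that comparison 1.07% of all genes tested were called, 0.310% higher and 0.760% lower, and 17.3% had libraries that did not overlap, as Tek and Angpt2 did. Summed endocardial markers were at 547 to 877 CPM in venous against 118 to 160 CPM in arterial libraries. Their part in the venous levels of Tek and Angpt2 was not tested.

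Tie1, the partner receptor, had 171, 311 and 250 CPM in the arterial libraries, 198, 318 and 247 CPM in the venous ones and 232, 336 and 385 CPM in the endocardial ones. The 3 populations overlapped throughout, and the library of batch 1 was the lowest of each population. Coronary minus endocardial was -0.35 on the log2 scale (95% interval -0.81 to 0.10, adjusted p = 0.352, edgeR), and coronary libraries were below the endocardial one of their own batch in 3 of 3 batches. Arterial minus venous was -0.06, with an interval of -0.59 to 0.47 and an adjusted p of 0.984.

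Ptprb (chromosome 10, 116275523 to 116389535, plus strand), the phosphatase gene, had 575, 908 and 809 CPM in the arterial libraries. It had 641, 875 and 804 CPM in the venous and 315, 341 and 429 CPM in the endocardial libraries. Arterial and venous libraries covered the same range, and all 6 lay above the endocardial ones. As with Tie1, the library of batch 1 was the lowest of each population. Ptprb was 2.11-fold higher in arterial than in endocardial libraries (log2 1.08 ± 0.19, adjusted p = 0.000782, edgeR). It was 2.14-fold higher in venous than in endocardial libraries (log2 1.10 ± 0.19, adjusted p = 0.000896, edgeR). Both coronary populations were higher in 3 of 3 batches, which follows from the lack of overlap. Coronary minus endocardial was 1.09 (adjusted p = 0.000240), and it was 1.06 without endocardial replicate 2 (adjusted p = 0.00327) and 1.24 without endocardial replicate 3 (adjusted p = 0.000331). Arterial minus venous was -0.02 (interval -0.41 to 0.38, adjusted p = 0.994).

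In the comparison of arterial with endocardial libraries 3 of the 5 genes were called, Ptprb higher and Tek and Angpt2 lower, where 11.7% of all genes were (5.92% higher and 5.75% lower). Libraries did not overlap for 4 of the 5, the exception being Tie1, and for 25.6% of all genes. Between venous and endocardial libraries 2 were called, Ptprb higher and Tek lower, where 10.2% of all genes were (5.81% higher and 4.44% lower). The same 4 genes did not overlap there, as was so for 28.2% of all genes. These comparisons share the endocardial libraries.

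**Figure D2:**
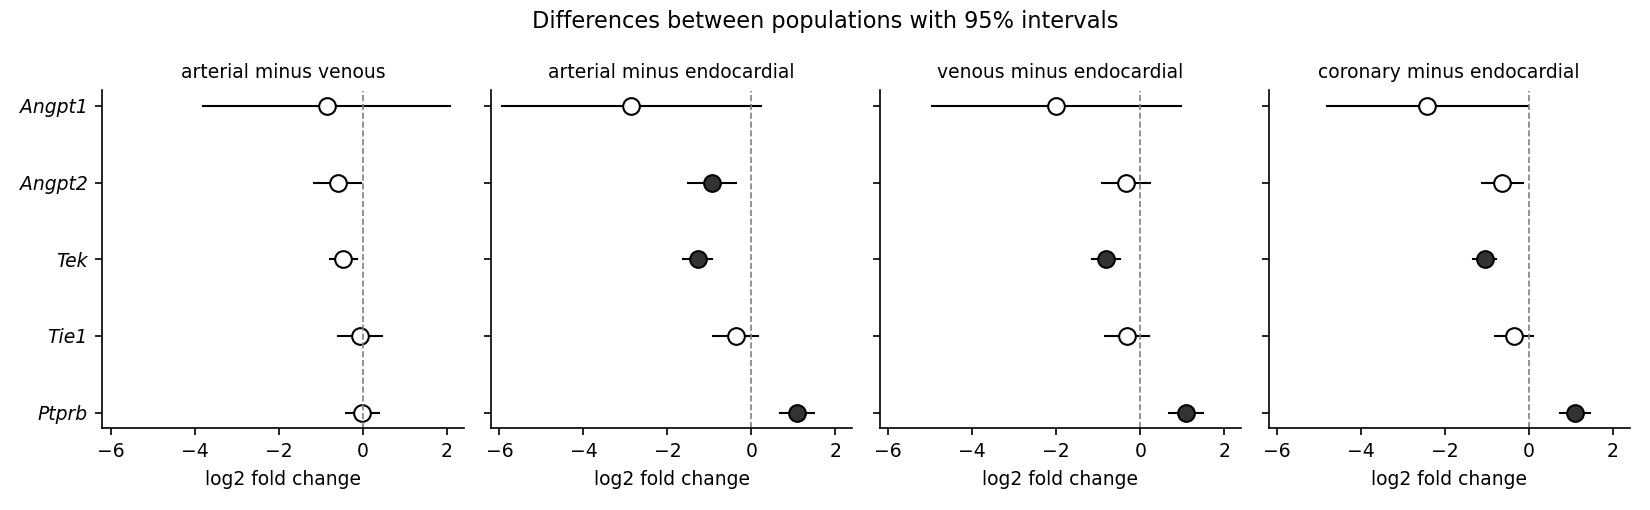
Log2 fold change of the 5 genes in each of the 4 comparisons, the first-named population over the second, with 95% intervals as lines. Filled points were called at an adjusted p under 0.05 (edgeR). Tek lies below 0 and Ptprb above 0 in each comparison with endocardium, and the interval of Angpt1 is the widest in each panel.

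The balance of the phosphatase and its receptors differed between the populations within single libraries, where scaling plays no part. Per kb of exon, the ratio of Ptprb to Tek was 0.460, 0.767 and 0.928 in arterial and 0.422, 0.616 and 0.499 in venous libraries, against 0.114, 0.132 and 0.158 in endocardial ones. Coronary and endocardial libraries were thus well apart, while arterial and venous ones overlapped. The ratio of Ptprb to Tie1 varied little among the coronary libraries. It lay between 1.02 and 1.24 in all 6 of them, against 0.500, 0.374 and 0.411 in the endocardial libraries. Tek exceeded Tie1 in each of the 9 libraries, by 2.70, 1.41 and 1.28 times in arterial, 2.83, 1.65 and 2.41 times in venous and 4.38, 2.83 and 2.60 times in endocardial libraries. The populations overlapped, while within each of the 3 batches the endocardial ratio was above both coronary ones.

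**Figure D3:**
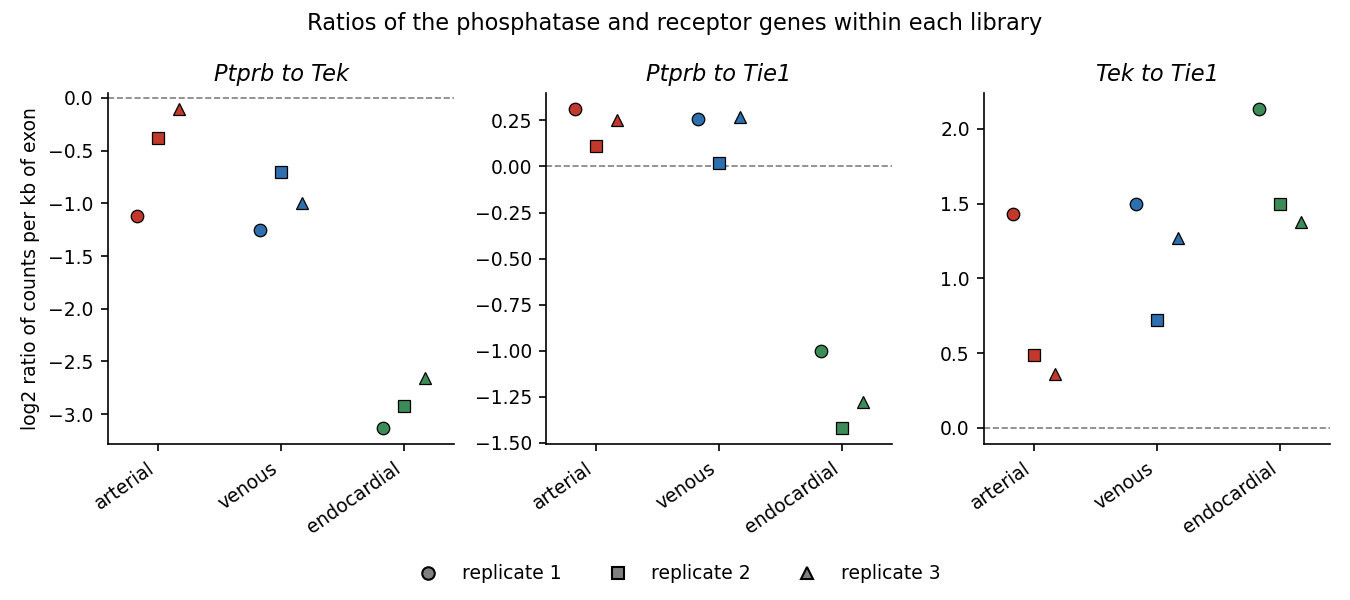
Log2 ratio of counts per kb of exon for 3 pairs of genes in each library, with 1 symbol per replicate number and a dashed line where both genes are equal. All coronary ratios of Ptprb to Tek (-1.25 to -0.11) lie above the endocardial ones (-3.13 to -2.66), and those of Ptprb to Tie1 lie between 0.02 and 0.31, above every endocardial one.

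On the same per-kb scale the 3 membrane protein genes ranked high in every population. Mean Tek was 82.7 ± 15.2 CPM per kb for arterial, 114 ± 7.09 for venous and 201 ± 6.82 for endocardial libraries (SD, n = 3 each), ranks 431, 301 and 151 of 16917 tested genes with a length. Tie1 averaged 49.6 ± 14.3, 51.7 ± 12.2 and 64.6 ± 15.9 CPM per kb, and Ptprb averaged 57.3 ± 12.8, 58.0 ± 8.99 and 27.1 ± 4.50. The order in endocardial libraries was Tek, Tie1, Ptprb, with no overlap between neighbours. Venous Tek also lay above both others, arterial Tek overlapped with Ptprb, and Ptprb and Tie1 overlapped in both coronary populations. These orders, and the size of the ratios above, depend on the exon lengths used. Each length is the union of a gene's annotated exons, 4712 bases for Tek, 4917 for Tie1 and 13333 for Ptprb. Other lengths were not tested.

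Genes were set against each member over the 9 libraries by Pearson correlation of log2 CPM, as a description. Such a correlation reflects the population means and also the spread of replicates within a population. The genes most like each member were taken among 6664 genes of mean log2 CPM of at least 4. For Tek they were Sema3a, a secreted guidance factor gene (r = 0.992), Cd59a, a complement regulator gene (0.989), and Spats2l (0.988). Mean levels of Sema3a were 9.10, 20.4 and 128 CPM in arterial, venous and endocardial libraries. For Ptprb they were Gpihbp1, which anchors lipoprotein lipase in capillaries (0.988), the surface sialomucin gene Cd34 (0.985) and the VEGF receptor gene Kdr (0.985). Gpihbp1 averaged 110, 112 and 12.6 CPM in the same populations. Angpt2 was most like Pdia3 (0.988), Igf1 (0.983) and Celf2 (0.980), and Tie1 was most like Colgalt1 (0.972), Dag1 (0.971) and Srpr (0.966). For Angpt1, with few counts, they were Sdf4, Copz2 and Stxbp4 (0.964, 0.962 and 0.928).

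Genes around the system were read from 6 lists written by role, of which 74 genes were tested. Of these 74, 36 were called between coronary and endocardial libraries (edgeR), where 13.9% of all genes were (7.00% higher and 6.91% lower). The counts of each list below stand beside that same share. The lists were chosen with earlier results of these data known and include pan-endothelial markers, so these counts are a description and no test. Of 19 adaptors and kinases reported downstream of TIE2, 7 were higher in coronary than in endocardial libraries, 2 lower and 10 not called (edgeR), with a median log2 fold change of 0.27 against -0.08 for all genes. Pik3cb, a catalytic subunit of phosphoinositide 3-kinase, was 6.31-fold higher. It had 123, 130 and 139 CPM in arterial and 102, 81.2 and 116 CPM in venous libraries, against 18.9, 15.6 and 19.7 CPM in endocardial ones (log2 2.66 ± 0.19, adjusted p = 3.80e-08). The adaptor gene Nck1 had a log2 fold change of 0.77 (adjusted p = 0.00371), and the Ras regulator gene Rasa1 one of 0.67 (adjusted p = 0.0103, and 0.0842 without endocardial replicate 2). Pik3ca (0.27) and Akt1 (-0.15), other members of the kinase cascade, missed the threshold, with adjusted p of 0.279 and 0.731. Dok2, an adaptor gene also active in blood cells, averaged 0.209 ± 0.236 CPM in the 6 coronary libraries, against 3.28, 2.16 and 11.9 CPM in the endocardial ones. Its call (adjusted p = 0.00247) ended without endocardial replicate 3 (0.149). The other adaptor gene called lower was Shc1 (-0.76, adjusted p = 0.0304), and that call ended without any of 5 single libraries, at 0.0561 to 0.292. The count of 7 was 4 without arterial replicate 2, endocardial replicate 1 or endocardial replicate 2, and the count of 2 was 1 or 0 without arterial replicate 1 or 3, venous replicate 3 or endocardial replicate 2 or 3.

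Transcription factors reported around Tek moved both ways. Of 16, 3 were higher in coronary libraries, 5 lower and 8 not called, with a median of 0.08. Foxo1, the forkhead factor that TIE2 signalling restrains through AKT and that drives Angpt2 expression, was 1.85-fold lower in coronary libraries. It had 103, 122 and 106 CPM in arterial, 112, 122 and 115 CPM in venous and 168, 213 and 248 CPM in endocardial libraries (log2 -0.89 ± 0.15, adjusted p = 0.000394, edgeR). The ETS factor genes Ets1 and Fli1 were higher in coronary libraries by 1.12 and 1.07 on the log2 scale (adjusted p = 9.72e-06 and 4.68e-05, edgeR). The other ETS factor genes of the list, Erg, Elf1 and Elf2, were not called (0.48, 0.10 and 0.06, adjusted p = 0.231, 0.776 and 0.898). The part of ETS factors in the level of Tek was not tested. Foxc1, a forkhead factor gene, was 11.6-fold lower, at 19.9 ± 8.08 CPM over 6 coronary libraries and 218 ± 20.7 over 3 endocardial ones (adjusted p = 2.10e-10). Its relative Foxc2 was 5.62-fold lower, at 7.20 ± 2.82 CPM over 6 coronary libraries and 38.5 ± 11.5 over 3 endocardial ones (adjusted p = 8.46e-06). The homeobox gene Hhex was higher (0.74, adjusted p = 0.0134, and 0.0560 without endocardial replicate 1), and the flow-responsive Klf2 was 1.77-fold lower (adjusted p = 0.00152).

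Among 12 co-receptor and protease genes, 3 were lower in coronary libraries and 9 were not called, with a median of -0.30. Mmp14, a membrane protease gene, fell by 0.98 on the log2 scale (adjusted p = 0.00272), and the integrin gene Itgav by 0.77 (adjusted p = 0.00469, and 0.0582 without endocardial replicate 2). The remaining one was the protease gene Bace1 (-0.72, adjusted p = 0.0180), whose call ended without endocardial replicate 2 or 3, at 0.0592 to 0.194. The count of 3 was 1 without endocardial replicate 2. Svep1, whose matrix protein binds TIE1, was not called (-1.56, adjusted p = 0.139).

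In the rest of the angiopoietin family 7 of 8 genes were tested, with 1 higher, 2 lower and 4 not called in coronary libraries and a median of -1.77. Angptl4, an inhibitor of lipoprotein lipase, had 20.7, 37.7 and 37.4 CPM in arterial and 20.9, 55.9 and 62.8 CPM in venous libraries, against 3.59, 8.14 and 3.80 CPM in endocardial ones, a 7.44-fold difference (adjusted p = 0.000510). Angptl1 and Angptl2 had log2 fold changes of -2.95 and -1.77 (adjusted p = 0.00149 and 0.000370). Angpt4, the remaining TIE2 ligand gene, did not pass the filter and lay between 0 and 1.32 CPM in the 9 libraries.

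Of the other receptor-type phosphatase genes, more were called against the direction of Ptprb than with it. Of 11 tested, 2 were higher in coronary libraries, 6 lower and 3 not called, with a median of -0.99. The count of 6 was 4 without venous replicate 2 or 3 or endocardial replicate 3. Among the 6, the calls of Ptprj (-1.29, adjusted p = 0.0265, edgeR) and Ptprk (-0.56, adjusted p = 0.0353) ended without any of 4 and 7 single libraries. Ptprm and Ptprg, both found in endothelium, were higher by 0.83 and 0.89 on the log2 scale (adjusted p = 0.000290 and 0.000579). Ptprm had 444, 543 and 494 CPM in arterial and 368, 407 and 418 CPM in venous libraries, against 233, 242 and 274 CPM in endocardial ones. Ptprf, Ptprd and Ptprs, which form the LAR family, had log2 fold changes of -2.22, -1.51 and -1.47 (adjusted p = 1.50e-07, 0.000230 and 0.000200).

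Of 9 tested genes for junction proteins and other partners of Ptprb, 5 were higher in coronary libraries and 4 were not called, with a median of 0.80. Cdh5, encoding VE-cadherin, which binds VE-PTP, had 1292, 1837 and 1796 CPM in arterial and 1301, 1842 and 1531 CPM in venous libraries, against 628, 1030 and 1092 CPM in endocardial ones (log2 0.80, adjusted p = 0.00925). Kdr and the junction gene Esam were higher as well, with log2 fold changes of 1.56 and 0.99 (adjusted p = 4.39e-05 and 0.000351). Ctnnb1, encoding beta-catenin, was higher by 0.49 (adjusted p = 0.0190), and that call ended without venous replicate 1 or endocardial replicate 2 or 3, at 0.0531 to 0.0743. Pecam1 was also called higher (0.45, adjusted p = 0.0388, edgeR), and that call ended without any of 7 single libraries, at 0.0514 to 0.146. The count of 5 called partners was 3 without endocardial replicate 2 or 3. The partners Cdh5, Kdr, Esam and Pecam1, all called, and Cldn5, not called, are also pan-endothelial markers. Of the 12 pan-endothelial markers, 5 were higher in coronary libraries and 1 was lower, and their part in the difference of Ptprb was not tested.

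**Figure D4:**
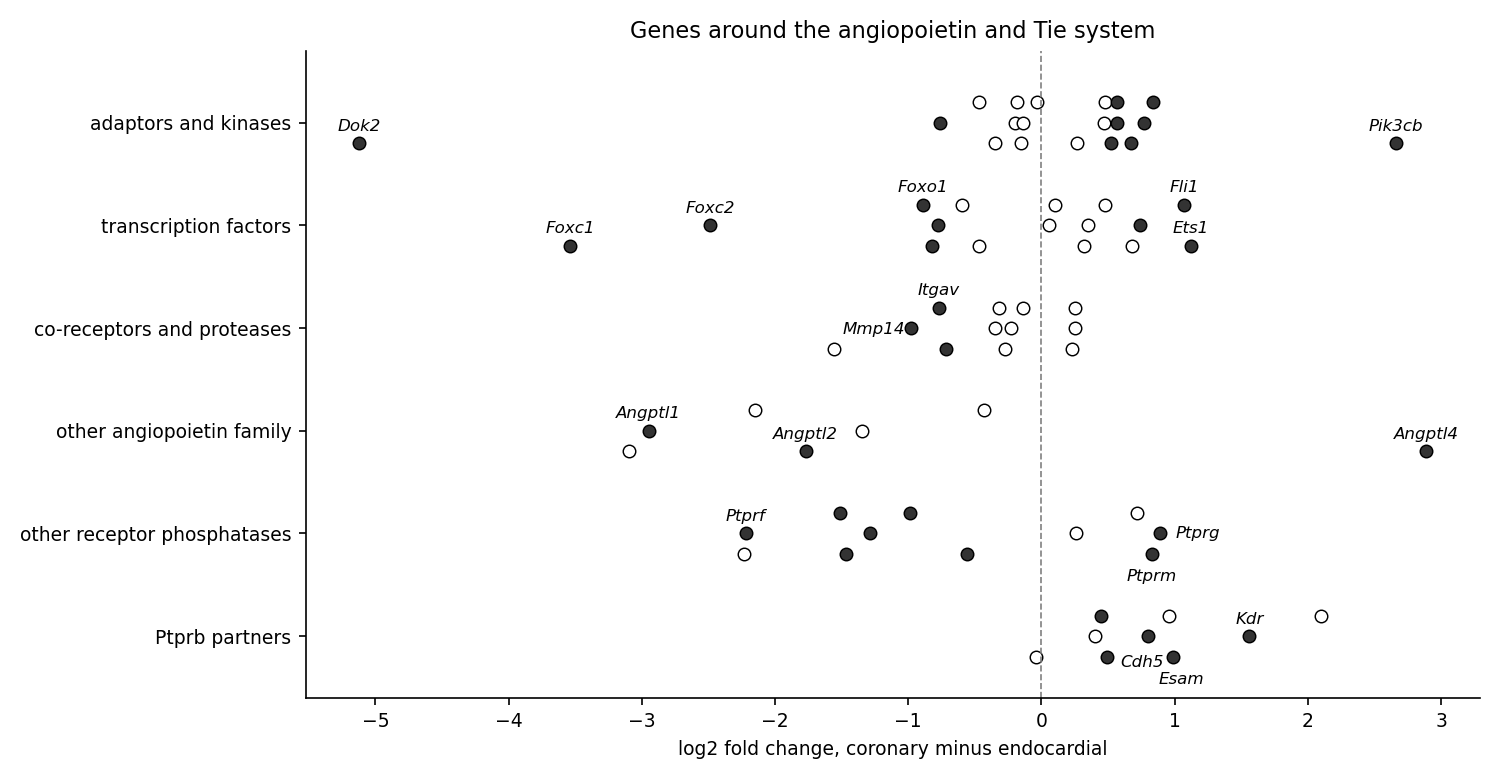
Log2 fold change of coronary minus endocardial libraries for the 74 tested genes of the 6 lists, 1 row per list, with points spread vertically for legibility. Filled points were called at an adjusted p under 0.05 (edgeR), and selected genes are named. Calls lie on both sides of 0 in 4 of the lists, while those of the co-receptors lie below 0 and those of the Ptprb partners above it.

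Between arterial and venous libraries 4 of the 74 genes were called by edgeR, 6 by DESeq2 and 2 by limma voom. Over all genes tested, edgeR called 183 of 17103 (1.07%) in that comparison and DESeq2 called 356. Those of edgeR were Foxc1, Angptl2, Ptprf and Ptprd, all lower in arterial libraries. Mean Foxc1 was 13.2 ± 0.811 CPM for arterial against 26.6 ± 5.25 CPM for venous libraries (SD, n = 3 each). Its adjusted p was 0.0119 in edgeR and 0.0950 without venous replicate 1, and its call also ended with limma voom and with only the 2 populations compared. Mean Ptprf was 23.8 ± 3.24 CPM for arterial against 56.9 ± 3.68 CPM for venous libraries (adjusted p = 0.00577). The call of Angptl2 (adjusted p = 0.0229) ended without arterial replicate 1 or 3 or venous replicate 1 or 2, at 0.0664 to 0.122, and with limma voom. Of the 10 endocardial markers, 5 were called lower in the arterial libraries, as were 6 of the 10 fibroblast markers (median -4.13, summed levels above), and their part in these differences was not tested.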

How the data were processed

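Polyadenylated RNA of 9 sorted samples was sequenced as single reads. The labels name both a NEBNext Ultra and an Ovation Single Cell library kit. The authors deposited gene-level expected counts, made with RSEM 1.2.3 after CASAVA 1.8.2 and cutadapt 1.3 on GRCm38, per the submitters' processing notes. For the aligner and the strandedness, the sources used here give nothing. The deposited file's name carries GRCm38 and 76.

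Expected counts (45.5% of values above 0 were not whole, tolerance 0.001) were rounded. Symbols matched 97.67% of 41214 genes. Coordinates and exon lengths came from GENCODE M21 (GRCm38). Genes were tested in 1 fit of all libraries with edgeR 4.0.16 in R 4.3.3 (TMM, quasi-likelihood, robust, minimum count 10), with p adjusted by Benjamini-Hochberg over 17103 genes. The SE is the log2 fold change over the square root of F. Alternatives used DESeq2 1.42.0 and limma 3.58.1. The edgeR step was tested on simulated data. Named genes were the members, for coronary minus endocardial and arterial minus venous up to 4 called genes per list by smallest p with those against the direction of most, and the 3 most alike genes per member, and a few further list genes were named after their values were seen. The members and lists were chosen with earlier results of these data known.

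The labels give each replicate number as a batch, so same-numbered libraries were taken as paired. Correlations of their deviations from the population means were -0.0902 to 0.165 for the same number and -0.271 to 0.16 for different numbers, ranges that largely overlap, so the pairing rests on the labels. The main fit had no block. Within-batch differences used log2(CPM + 0.1). With 1 library of each population, single batches were not tested.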

Additional observations from a re-analysis of the deposited data

How the results depend on the processing

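Over 18 alternatives (17 for coronary minus endocardial), the calls of Tek and Ptprb in the 3 comparisons with endocardium kept their direction and stayed under the threshold. For coronary minus endocardial, log2 values were -1.10 to -0.97 for Tek and 1.00 to 1.24 for Ptprb. The call of Angpt2 in arterial minus endocardial ended without a filter on low counts (-0.91, adjusted p = 0.0633) and with only the 2 populations compared (-0.93, adjusted p = 0.0812), and values without 1 library were -1.06 to -0.81. In coronary minus endocardial, DESeq2 called Angpt2 (-0.66, adjusted p = 0.0417) and limma voom called Angpt1 (-3.09, adjusted p = 0.0423). Some values of arterial minus venous changed sign, none of them a call. Ptprb was at 0.01 with RLE scaling, 0.02 with upper quartile scaling and 0.01 with DESeq2, and without 1 library Ptprb was at -0.22 to 0.14, Tie1 at -0.33 to 0.14 and Angpt1 at -2.11 to 0.22. By plain library totals mean endocardial Tek was 912 CPM against 948 with TMM scaling, a shift above its SD of 32.2. The other member means moved by less than their SD. The causes were not tested.

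Over all genes, 183 were called in arterial minus venous, 439 without the filter, 356 with DESeq2 and 120 to 225 without 1 library, the lowest without venous replicate 1. In venous minus endocardial 1753 were called, and 1130 to 1871 without 1 library, the lowest without venous replicate 3. With the replicate block the log2 difference of coronary minus endocardial was -1.05 for Tek (adjusted p = 5.71e-06) and 1.08 for Ptprb (adjusted p = 7.65e-06), and the block changed no call of the 5 genes. Few counts limit Angpt1, whose interval spans several log2 units. Fits of only the populations compared do not apply to coronary minus endocardial, which uses all 3.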
